A study of Macaca fuscata with 18 samples.

Results

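The insulin-like growth factor (IGF) axis was followed in the anterior subventricular zone (SVZa) of the monkey, the germinal tissue that lines the anterior horn of the lateral ventricle, after transient global brain ischemia. It was taken as 10 genes chosen by symbol: the ligands IGF1 and IGF2, the receptors IGF1R and IGF2R, and the binding proteins IGFBP2, IGFBP3, IGFBP4, IGFBP5, IGFBP6 and IGFBP7. All 10 were among the 19747 symbols of the count table, and all 10 passed the filter on low counts, which left 17522 genes to test. Where a symbol had several transcripts, the one with the highest mean level was used.

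Adult Macaca fuscata underwent either clipping of the arteries to the brain for 18 minutes (ischemia) or the same operation without clipping (sham). Tissue was taken 7 days later, and 3 adjacent SVZa fragments of each animal (A1, A2 and A3) were sequenced, so that 6 monkeys gave 18 libraries. The sham monkeys were MK501, MK504 and MK508, and the ischemic monkeys were MK503, MK506 and MK507. The study's numbering of the animals set MK504 with MK503 as the first pair, MK501 with MK507 as the second and MK508 with MK506 as the third. No transgene or other genetic change was involved. The replicate was the monkey, with n = 3 per group.

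IGF1 and IGF2 are secreted peptides that act on IGF1R, a receptor tyrosine kinase that signals through insulin receptor substrates, PI3K and AKT. IGF2R, the cation-independent mannose 6-phosphate receptor, takes IGF2 to lysosomes and carries no kinase. The binding proteins hold the ligands outside the cell, prolong their life or keep them from the receptor, and are themselves cut by proteases such as PAPPA. In rodents IGF1 affects the proliferation and differentiation of neural precursors, and IGF2 in the adult brain is made mainly by the choroid plexus, the meninges and vessels.

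Library totals lay between 18076257 and 74551396 counts (median 41674739), and the 3 libraries of a monkey summed to between 60453769 and 190678361. All 10 members were covered in every library, with a lowest count of 12, in IGFBP2 and IGFBP3. Levels are given as counts per 1000000 counts of a library (CPM), scaled by the trimmed mean of M-values. They were not divided by transcript length, so the members are compared across samples and not with each other. In bulk tissue, fewer cells of a type and less RNA per cell cannot be told apart.

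Some libraries stood apart before any group was compared. Fragment A2 of the sham monkey MK501 held 71458 CPM of TTR, which encodes transthyretin, the leading product of the choroid plexus epithelium. This was 6.75% of its counts, against a median of 10.5 CPM in the other 17 libraries. TTR was next highest in A1 of MK504 (4033 CPM), A3 of MK501 (2430 CPM) and A1 of MK508 (1045 CPM), all sham, and was at most 150 CPM in the ischemic libraries. The libraries of the first pair, MK503 and MK504, differed from the other 4 monkeys in both groups: MALAT1, a nuclear RNA, took 1.09% to 1.27% of their counts and 0.0360% to 0.235% elsewhere. Of these libraries, 3 also held very high counts of POLE2, which encodes a subunit of DNA polymerase epsilon. They were A2 of MK503 (91445 CPM), A2 of MK504 (101309 CPM) and A3 of MK504 (89845 CPM), and the other 15 held at most 6.69 CPM. Markers of ependyma and astrocytes were present in all 18 libraries, but at uneven levels. The sum of 10 ependymal markers was 64.1 CPM in A3 of MK508 and 89.9 CPM in A1 of MK503, and 1869 CPM in A1 of MK508. The sum of 10 oligodendrocyte markers ran from 1606 CPM in A3 of MK503 to 47409 CPM in A3 of MK508, with 30754 CPM in A1 of MK503.

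**Figure D1:**
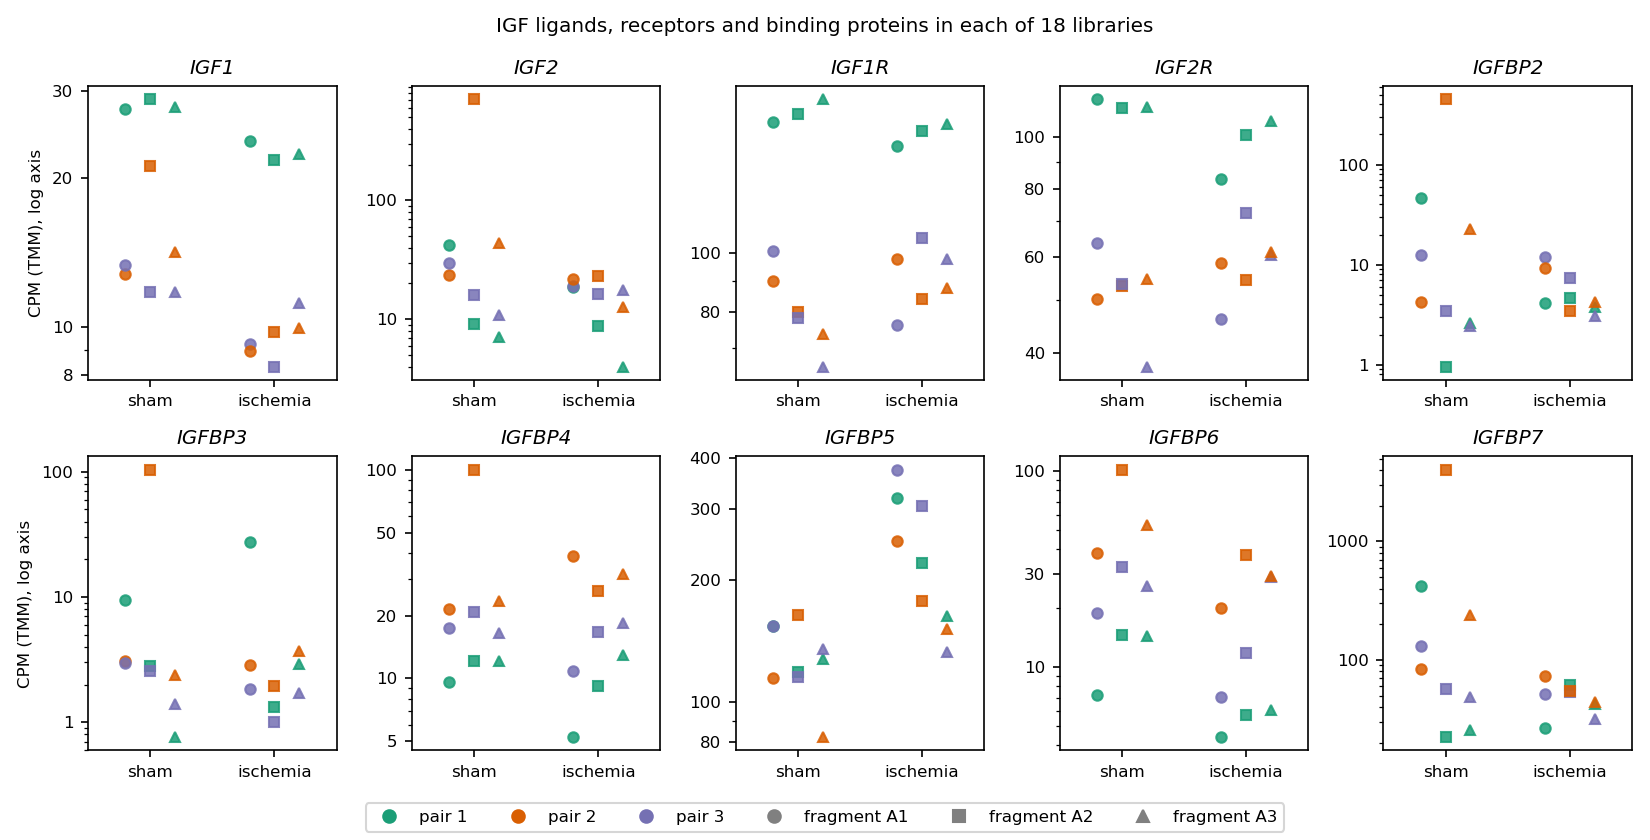
Level of each member in the 18 libraries, in CPM on a log axis, with 9 sham libraries on the left and 9 ischemic libraries on the right of each panel. Each point is 1 library, colour gives the pair and symbol the fragment; A2 of MK501 lies far above the rest in IGF2, IGFBP2, IGFBP3, IGFBP4 and IGFBP7, and the first pair lies apart in IGF1, IGF1R and IGF2R.

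The first question was whether ischemia was followed by a different level of the axis. IGFBP5 was higher and IGFBP6 lower in the ischemic member of all 3 pairs, by log2 differences of 0.86 and -0.996. IGF1 was lower in all 3 pairs by a smaller amount, and the receptors differed by less than their error. IGF2, IGFBP2 and IGFBP7 had the greatest differences, all lower after ischemia, but these rested on the sham libraries that were rich in TTR.

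By edgeR's quasi-likelihood test with the pair as a block, no gene of 17522 passed an adjusted p of 0.05 (0%), and so no member did. The smallest adjusted p was 0.205, a tied value that IGFBP5 and IGFBP6 shared with other genes. Among these were the choroid plexus marker TTR and the neuronal marker PENK, so the value does not rank the 2 members first. At an unadjusted p under 0.05, 1469 genes (8.38%) were higher and 1409 (8.04%) lower. Past the same unadjusted threshold, 1 of the 10 members was higher (IGFBP5) and 4 were lower (IGF1, IGFBP4, IGFBP6 and IGFBP7). DESeq2 on the same sums called 661 genes higher (3.85%) and 426 lower (2.48%) of 17182 with an adjusted p. Its member calls were 1 rise, IGFBP5, and 1 fall, IGFBP6. The members' median log2 difference was -0.71, beside -0.02 over all genes tested.

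Direction by pair was counted as well. IGFBP5 alone was higher in all 3 pairs, as were 20.4% of all genes. IGF1, IGF2, IGFBP4, IGFBP6 and IGFBP7 were lower in all 3, as were 22.8% of all genes. In IGFBP5 all 3 ischemic monkeys lay above all 3 sham monkeys, which held for 2.44% of genes. In IGFBP7 all 3 lay below, which held for 2.76%.

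**Figure D2:**
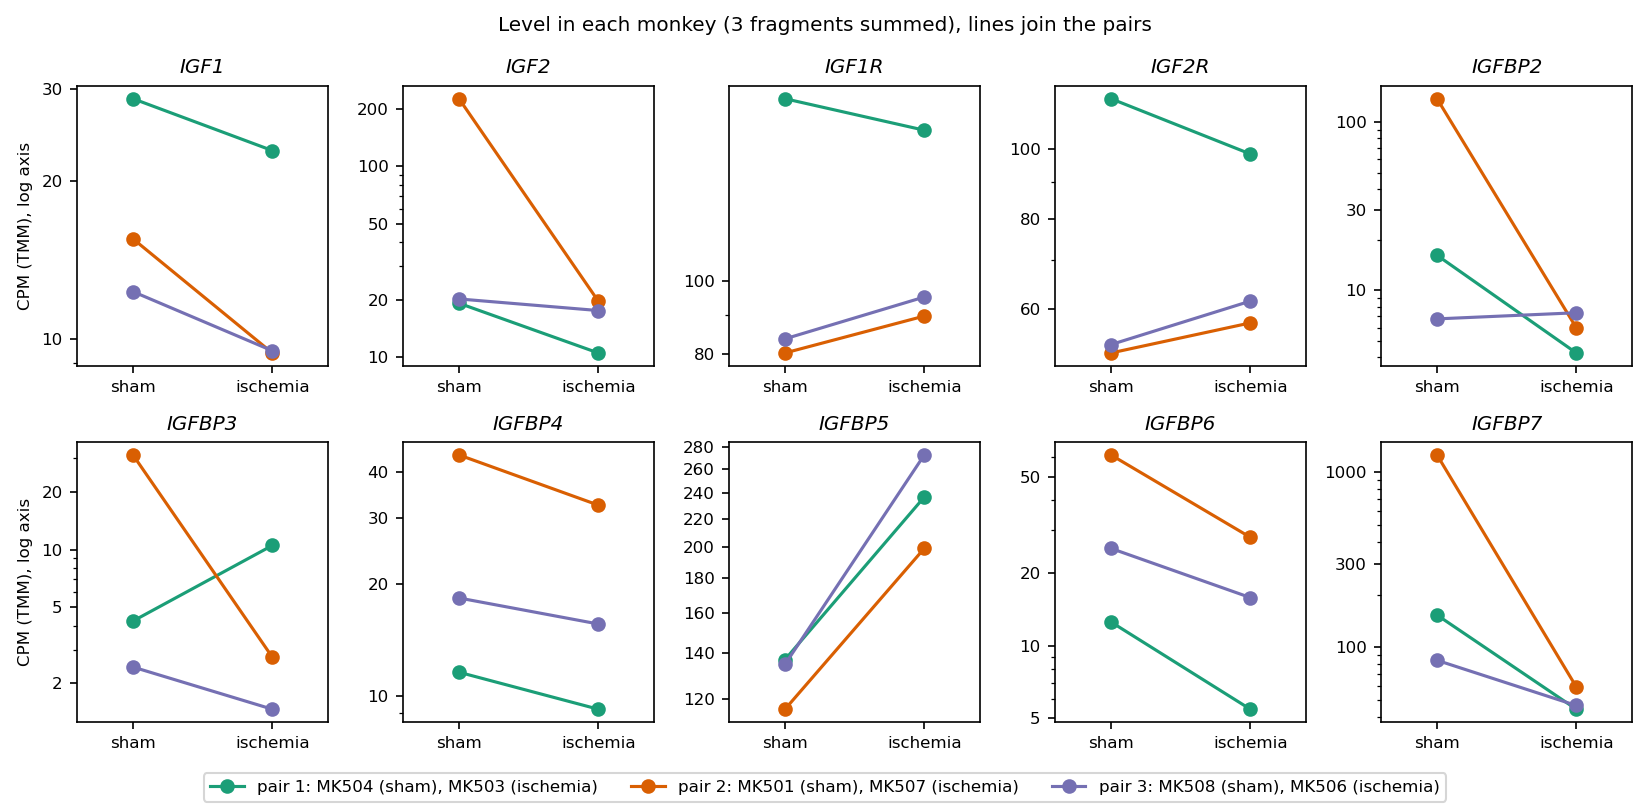
Level of each member in each of 6 monkeys, the 3 fragments summed, in CPM on a log axis; lines join the sham and the ischemic monkey of a pair. IGFBP5 is higher in all 3 ischemic monkeys than in any sham monkey, IGF1, IGFBP4 and IGFBP6 have parallel downward lines at levels that differ between pairs, and the lines of IGF2, IGFBP2 and IGFBP7 are steepest in the second pair.

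Of the ligands, IGF1 was the more even between fragments. It was 28.8, 15.5 and 12.3 CPM in the sham monkeys MK504, MK501 and MK508, and 22.9, 9.40 and 9.49 CPM in their ischemic partners MK503, MK507 and MK506. The group ranges overlapped, because both monkeys of the first pair were high, while within each pair the ischemic monkey was the lower. The log2 differences by pair were -0.33, -0.72 and -0.37. When each fragment was set against the same fragment of the partner, IGF1 was lower in 9 of 9 comparisons, by 0.08 to 1.11 on the log2 scale. The 3 fragments of a monkey are not independent, so these comparisons count as 3 pairs.

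The fitted log2 difference of IGF1 was -0.48 (SE 0.14, 95% interval -0.85 to -0.11, edgeR adjusted p = 0.245). In DESeq2 the adjusted p was 0.147. Monkeys accounted for 93.7% of the variance of IGF1 over the libraries, against 71.8% for the median gene. Without the TTR-rich A2 library of MK501 the difference was -0.42. Microglia, a main source of IGF1 in the injured rodent brain, gave no marker at an unadjusted p under 0.05 of 10 in either direction. Their summed marker level was 231 to 462 CPM in the sham libraries and 187 to 401 CPM in the ischemic ones. The part of microglia in the level of IGF1 was not tested.

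IGF2 was 19.2, 225 and 20.2 CPM in the sham monkeys MK504, MK501 and MK508, and 10.5, 19.7 and 17.6 CPM in the partners MK503, MK507 and MK506. MK501 lay about an order of magnitude above every other monkey, and the remaining 5 monkeys were close together. Over the libraries the sham values ran from 7.11 to 708 CPM with a median of 23.4, and the ischemic values from 3.997 to 23.1 CPM with a median of 17.7. The group ranges overlapped, though 5 of the 9 sham libraries lay above the highest ischemic one.

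The log2 difference of IGF2 was -1.48 (SE 0.71, interval -3.30 to 0.35, edgeR adjusted p = 0.362). It was -0.62 (edgeR adjusted p = 0.173, past the unadjusted threshold) without A2 of MK501, and -0.23 (edgeR adjusted p = 0.634) when A1 of MK504 was left out too. Without the 3 POLE2-rich libraries it was -1.89 and passed the unadjusted threshold (edgeR adjusted p = 0.274). That fit kept only A1 of MK504, a TTR-rich library, for this sham monkey. IGF2 shares its reads with a readthrough transcript of INS-IGF2 (NR_003512), whose counts were 1 to 1.006 times those of IGF2 in each library, so the 2 rows cannot be told apart. The other INS-IGF2 transcript (NM_001042376) had 1 to 11 counts in a library. The libraries were not stranded, and the overlapping antisense gene IGF2-AS had at most 1.71 CPM.

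Neither receptor differed between the groups beyond its error. IGF1R was 175, 80.2 and 83.7 CPM in sham MK504, MK501 and MK508 and 159, 89.8 and 95.2 CPM in MK503, MK507 and MK506. IGF2R was 117, 52.1 and 53.5 CPM in the sham monkeys and 98.3, 57.3 and 61.5 CPM in the same order of partners. In both genes the monkeys of the first pair were the highest, the first pair went down with ischemia and the other pairs went up.

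The log2 difference of IGF1R was 0.07 (95% interval -0.24 to 0.38, edgeR adjusted p = 0.794). That of IGF2R was 0.03 (-0.31 to 0.37, edgeR adjusted p = 0.929). The intervals leave room for changes of up to about those bounds in either direction. The receptors were also the steadiest members, with SDs of 0.49 and 0.50 in log2 CPM over the libraries, below the median gene (0.70). They ran close to each other: of all genes, IGF2R was the nearest to IGF1R in centred log2 CPM over 18 libraries, with a root mean square difference of 0.11. Both receptors were higher in each of the 6 libraries of the first pair than in any other library.

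IGFBP5, a binding protein that is kept in the extracellular matrix, was the member with the clearest separation. It was 137, 116 and 135 CPM in the sham monkeys MK504, MK501 and MK508, a mean of 129 ± 11.6 CPM (SD, n = 3). In the partners MK503, MK507 and MK506 it was 237, 199 and 273 CPM, a mean of 236 ± 36.8 CPM (SD, n = 3). The lowest ischemic monkey lay above the highest sham monkey.

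The log2 difference of IGFBP5 was 0.86 (SE 0.12, interval 0.55 to 1.17, edgeR adjusted p = 0.205). DESeq2 gave 0.86 with an adjusted p of 1.11e-05. It was 0.79, 0.78 and 1.02 in the 3 pairs. The TTR-rich A2 library of MK501 had 164 CPM of IGFBP5, 1.07 times the median of the other libraries, and the difference was 0.94 without it.

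By fragment, the groups were apart in A1 and A2 and overlapped in A3. In A1 the sham libraries of MK501, MK504 and MK508 held 115, 155 and 154 CPM and the ischemic libraries of MK503, MK506 and MK507 held 319, 374 and 250 CPM. In the same order of monkeys, the A2 sham values were 164, 119 and 116 CPM and the ischemic values 221, 304 and 177 CPM. In A3 the values were 82.2, 128 and 135 CPM in sham and 163, 133 and 152 CPM in ischemia. Each ischemic monkey had its lowest value in A3, but of the sham monkeys only MK501 did. The interaction of fragment with treatment was not past the threshold (edgeR adjusted p = 0.671), so that a difference in the response between fragments is not shown.

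Of the glial markers, those of oligodendrocytes were also higher after ischemia. Summed over 10 oligodendrocyte markers, the level was 2827, 3704 and 18746 CPM in sham MK504, MK501 and MK508 and 14870, 13334 and 23069 CPM in MK503, MK507 and MK506. All 10 were higher past the unadjusted threshold, as were 8.38% of all genes, and their median log2 difference was 1.58. Of 10 astrocyte markers 2 were higher, with a median of 0.17 and sums of 7813 to 13077 CPM in the sham monkeys and 11073 to 16147 CPM in the ischemic ones. Neither list held a marker that was at 0 in any library. The part of these cells in the level of IGFBP5 was not tested.

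IGFBP6, which binds IGF2 in preference to IGF1, was lower after ischemia. It was 12.5, 61.4 and 25.2 CPM in the sham monkeys MK504, MK501 and MK508. In the partners MK503, MK507 and MK506 it was 5.46, 28.1 and 15.8 CPM. The group ranges overlapped, since the pairs differed in level, but each ischemic monkey had a lower value than its partner. The log2 differences by pair were -1.19, -1.13 and -0.67.

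The fitted log2 difference of IGFBP6 was -0.996 (SE 0.15, interval -1.38 to -0.61, edgeR adjusted p = 0.205). DESeq2 gave -0.997 with an adjusted p of 0.00014. Fragment by fragment, 8 of 9 comparisons with the partner were lower. The exception was A3 of the third pair, with 29.0 CPM in MK506 and 25.9 CPM in MK508. Without A2 of MK501, in which IGFBP6 was 102 CPM, the difference was -0.86 (edgeR adjusted p = 0.136).

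IGFBP4, the binding protein that PAPPA cuts, was 11.6, 44.3 and 18.3 CPM in sham MK504, MK501 and MK508, and 9.22, 32.5 and 15.6 CPM in MK503, MK507 and MK506. The ischemic monkey was lower in each pair and the group ranges overlapped. The log2 difference was -0.34 (SE 0.12, interval -0.64 to -0.04, edgeR adjusted p = 0.278). This rested on A2 of MK501, where IGFBP4 was 100 CPM, 6.01 times the median of the other libraries. The difference was -0.01 (edgeR adjusted p = 0.978) without that library. It was -0.27 (edgeR adjusted p = 0.357) without the POLE2-rich libraries and no longer passed the unadjusted threshold.

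IGFBP7 binds IGFs weakly and is found in vascular basement membranes. It was 153, 1256 and 84.3 CPM in sham MK504, MK501 and MK508, and 44.3, 59.4 and 46.5 CPM in MK503, MK507 and MK506. All 3 ischemic monkeys were below all 3 sham monkeys, by a wide margin in MK501 and a smaller one in the others. Over the libraries, however, the groups overlapped. The sham values ran from 22.3 to 4014 CPM with a median of 83.0, and the ischemic values from 26.9 to 73.7 CPM with a median of 51.3.

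The log2 difference of IGFBP7 was -2.28 (SE 0.76, interval -4.23 to -0.34, edgeR adjusted p = 0.265). Without A2 of MK501 it was -1.38 (edgeR adjusted p = 0.135). Without that library and A1 of MK504 it was -0.53 (edgeR adjusted p = 0.571), and the unadjusted threshold was no longer passed. Leaving out the POLE2-rich libraries, which kept only the TTR-rich A1 of MK504, gave -3.04 (edgeR adjusted p = 0.216). In fragments A2 and A3 of the first pair the order was the reverse, with 61.2 and 42.5 CPM in MK503 and 22.3 and 25.4 CPM in MK504.

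IGFBP2, a major binding protein of the cerebrospinal fluid, was 16.1, 137 and 6.76 CPM in sham MK504, MK501 and MK508 and 4.25, 5.99 and 7.35 CPM in MK503, MK507 and MK506. The first and second pair were lower after ischemia and the third was not. The log2 difference was -2.09 (SE 0.99, interval -4.64 to 0.46, edgeR adjusted p = 0.358). The library medians were alike, 4.20 CPM in sham and 4.22 CPM in ischemia. The difference was -1.004 (edgeR adjusted p = 0.270) without A2 of MK501, and -0.04 (edgeR adjusted p = 0.972) without A1 of MK504 as well. Leaving out the POLE2-rich libraries, which kept only the TTR-rich A1 of MK504, gave -2.78, past the unadjusted threshold (edgeR adjusted p = 0.295).

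IGFBP3, the main carrier of IGFs in serum, was 4.23, 31.3 and 2.43 CPM in sham MK504, MK501 and MK508 and 10.5, 2.74 and 1.46 CPM in MK503, MK507 and MK506. A single library set the high value in each group, A2 of MK501 with 103 CPM and A1 of MK503 with 27.5 CPM. Every other library held at most 9.51 CPM. The log2 difference was -0.95 (SE 1.03, edgeR adjusted p = 0.665). It was 0.19 without the first of these libraries and -0.56 (edgeR adjusted p = 0.333) without both, so that no direction could be given.

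**Figure D3:**
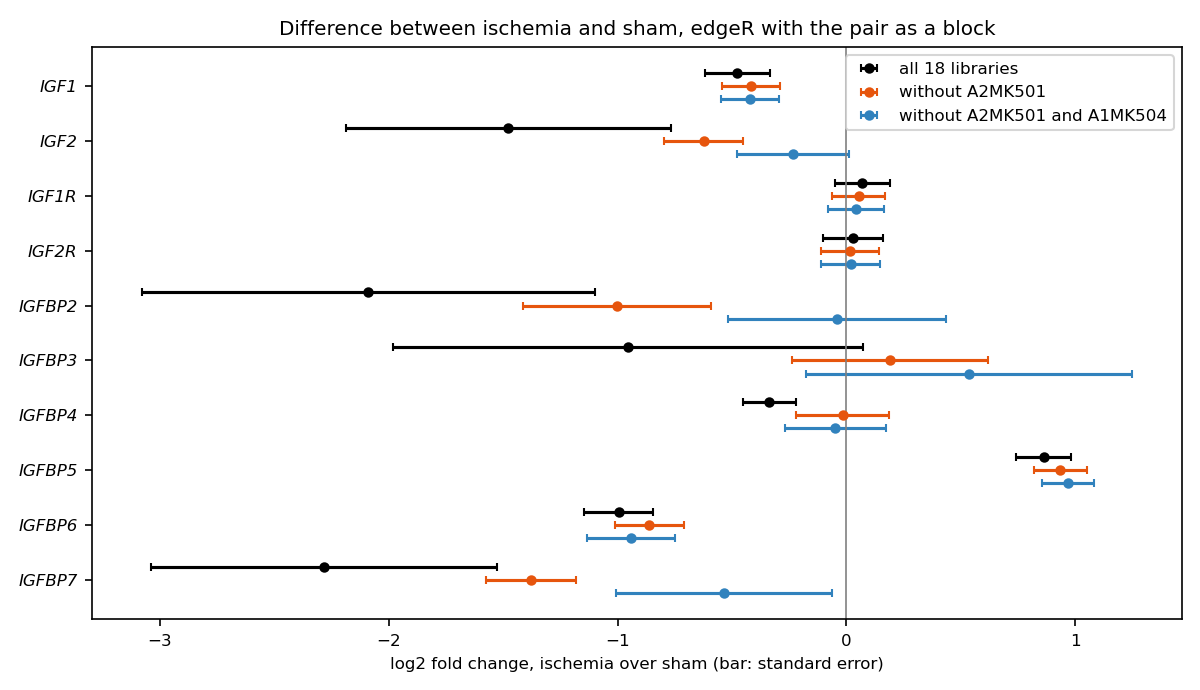
Log2 difference between ischemia and sham for each member by edgeR with the pair as a block, with bars for the standard error, from all 18 libraries and after leaving out A2 of MK501, alone or with A1 of MK504. IGF1, IGFBP5 and IGFBP6 stay in place, at -0.42, 0.97 and -0.94 with both left out, while IGF2, IGFBP2 and IGFBP7 move towards 0 with each library left out and IGFBP4 does so with the first.

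The members that depended on these libraries were then set beside TTR. In A2 of MK501 the level was 107 times the median of the other 17 libraries in IGFBP2, 74.2 times in IGFBP7, 40.3 times in IGFBP3 and 40.1 times in IGF2. Of 15348 genes with a median of at least 1 CPM, 2.83% were over 4 times their median in this library. IGFBP4 and IGFBP6 (6.01 and 5.36 times) also passed that level. IGF1 (1.65 times), IGFBP5 (1.07), IGF2R (0.869) and IGF1R (0.817) did not.

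The libraries with the 4 highest values of TTR were also those with the 4 highest values of IGF2, IGFBP2 and IGFBP7. For IGFBP2 and IGFBP7 the order was the same as for TTR. IGFBP7 was 4014, 421, 240 and 131 CPM in A2 of MK501, A1 of MK504, A3 of MK501 and A1 of MK508. IGFBP2 was 449, 46.0, 22.8 and 12.4 CPM in the same libraries. Beside each other, the 2 genes thus went down together while TTR went from 71458 to 1045 CPM.

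The ratio to TTR was not constant over these libraries. Per 1000 CPM of TTR, IGFBP7 was 56.2, 104, 98.8 and 125 CPM and IGFBP2 was 6.28, 11.4, 9.37 and 11.9 CPM. IGF2 went from 9.91 to 28.5 CPM per 1000 CPM of TTR. IGFBP3 was not ordered in this way, ranking 1, 3, 11 and 6 of the 18 libraries.

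Summed over 10 choroid plexus markers, the level was 2177, 22373 and 581 CPM in sham MK504, MK501 and MK508 and 240, 339 and 291 CPM in MK503, MK507 and MK506. Past the unadjusted threshold, 7 of the 10 markers were lower and 1 was higher, and the list's median log2 difference was -2.37. By library the sums were 78.4 to 74825 CPM in sham and 111 to 597 CPM in ischemia. CLIC6 was at 0 in A2 of MK504, and no other marker of this list was at 0 in any library. The part of choroid plexus tissue in IGF2, IGFBP2 and IGFBP7 was not tested beyond leaving these libraries out.

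Other markers were also high in A2 of MK501. The summed level of 10 markers of meningeal and perivascular fibroblasts was 550 CPM there and 95.7 CPM at the median of the other libraries. For endothelium these values were 388 and 165 CPM, and for pericytes and smooth muscle 649 and 314 CPM. In the comparison of ischemia with sham, 4 of 10 endothelial markers and 3 of 10 pericyte markers were lower past the unadjusted threshold, and none of either list was higher. No fibroblast or ependymal marker passed in either direction, and 3 of 10 neuronal markers were lower. The part of the endothelial, pericyte and neuronal markers in the lower values of IGFBP4, IGFBP6 and IGFBP7 was not tested.

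**Figure D4:**
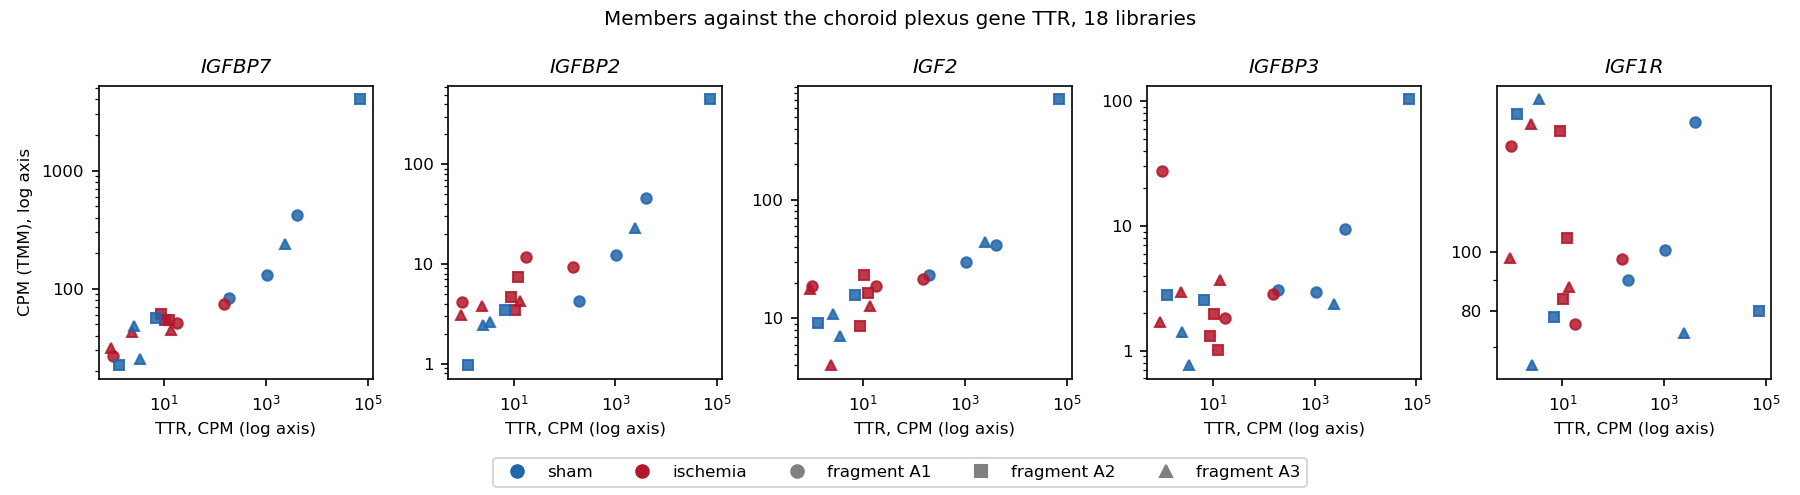
Levels of IGFBP7, IGFBP2, IGF2, IGFBP3 and IGF1R against TTR in the 18 libraries, both in CPM on log axes, with blue for sham, red for ischemia and the symbol for the fragment. IGFBP7 and IGFBP2 follow TTR in the 4 libraries with over 1000 CPM of TTR, IGFBP3 has a second high point at 27.5 CPM where TTR is near 1 CPM, and IGF1R shows no such order.

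The spread over all 18 libraries followed the same division. The SD of log2 CPM was 1.96 for IGFBP2, 1.79 for IGFBP7, 1.68 for IGFBP3 and 1.55 for IGF2. The last of these was above the SD of 94.3% of genes, and the others were higher still. It was 1.24 for IGFBP6, 0.93 for IGFBP4, 0.63 for IGF1 and 0.58 for IGFBP5. Monkeys accounted for 82.3% of the variance in IGFBP6 and 25.7% in IGFBP3, shares that include treatment and pair. IGFBP6 thus differed mostly from animal to animal. In IGFBP3 most of the variance lay between libraries of a monkey, and the highest were A2 of MK501 (103 CPM) and A1 of MK503 (27.5 CPM).

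The second question was whether the members differed between adjacent fragments. In a fit over the 18 libraries with the monkey as a block, edgeR called no gene of 17323 at an adjusted p of 0.05 (0%), while 1944 (11.2%) had an unadjusted p under 0.05. Of the members these were IGFBP5 and IGFBP6. DESeq2's likelihood ratio test, given the same 17323 genes, called 182 of them, among them 1 member, IGFBP6 (adjusted p = 0.0454).

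IGFBP6 was lowest in A1. Over 6 libraries each, it was 4.41 to 38.3 CPM in A1 (median 13.1), 5.74 to 102 CPM in A2 (median 23.5) and 6.04 to 53.4 CPM in A3 (median 27.5). The ranges overlapped, because the monkeys differed more than the fragments. Within monkeys A2 exceeded A1 by 0.90 and A3 exceeded A1 by 0.87 on the log2 scale (edgeR adjusted p = 0.428).

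IGFBP5 had its lowest median in A3, although A2 was below A3 in the sham monkeys MK504 (119 and 128 CPM) and MK508 (116 and 135 CPM). Its medians were 202, 171 and 134 CPM in A1, A2 and A3, and A3 differed from A1 by -0.67 on the log2 scale (edgeR adjusted p = 0.428). The lowest median was thus in A1 for IGFBP6 and in A3 for IGFBP5. The spatial order of the fragments along the ventricle was not given in the sources used here.

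The difference between ischemia and sham was also compared between fragments. For this interaction no gene of 17323 passed an adjusted p of 0.05 in edgeR (0%), 1701 genes (9.82%) had an unadjusted p under 0.05, and none of the members was among them. The smallest adjusted p of a member was 0.623, for IGFBP3.

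The genes around the axis were examined from lists of 44 further genes, of which 41 passed the filter. None passed an adjusted p of 0.05 in edgeR. Past the unadjusted threshold 1 was higher and 3 were lower, beside 8.38% and 8.04% of all genes. Neither count was above that share of the 41. The list's median log2 difference was -0.002. The untested genes were INS (at most 2 counts in a library), IGFBP1 (at most 14) and IGF2BP1 (at most 87). IGFBP1, the liver's binding protein, was therefore at or near the limit of detection.

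The 4 that passed the unadjusted threshold were receptor adapters or genes of the PI3K and AKT arm. The docking protein IRS1 had a log2 difference of -0.84 (edgeR adjusted p = 0.226), and SOCS2, an inhibitor of growth hormone signalling, one of -0.69 (adjusted p = 0.221). The forkhead factor FOXO1, which AKT keeps out of the nucleus, had -0.52 (edgeR adjusted p = 0.279). FOXO4, of the same family, had 0.50 (edgeR adjusted p = 0.283). IRS1 was highest in a pair of the TTR-rich libraries, with 65.2 CPM in A2 of MK501, 30.9 CPM in A1 of MK504 and 9.34 to 14.1 CPM in the other 16.

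Among the relatives of the members, 6 of 8 were tested and none passed the unadjusted threshold. The insulin receptor INSR had a log2 difference of -0.08, the cation-dependent mannose phosphate receptor M6PR -0.10, the growth hormone receptor GHR -0.01 and the binding protein relative IGFBPL1 0.41. All 7 proteases and protease inhibitors also missed it, with a median of -0.47. PAPPA was 3.80 and 2.86 CPM on average in sham and ischemia (log2 difference -0.73, edgeR adjusted p = 0.328), and its inhibitor STC1 was 9.21 and 5.49 CPM (-0.73, adjusted p = 0.306). HTRA1, a serine protease that cuts IGFBP5, was 288 and 286 CPM (0.01, edgeR adjusted p = 0.974).

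Of 9 receptor adapters, IRS1 and SOCS2 were lower and the other 7 did not pass, with GRB2 at 0.18, GRB10 at -0.15, SH2B1 at -0.13 and IRS2 at 0.11. Of 17 genes of the PI3K and AKT arm, FOXO4 was higher, FOXO1 lower and 15 did not pass, with a median of 0.14. Among the more abundant of them, PIK3R1 and TSC2 had log2 differences of 0.16 and -0.01. The IGF2 mRNA-binding proteins IGF2BP2 and IGF2BP3 had -0.04 and -0.002.

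Genes with the pattern most like each member were taken by the root mean square difference in centred log2 CPM over the 18 libraries, as a description. For IGFBP7 they were TRPV4, IGFBP2 and MSX1, and for IGFBP2 they were MSX1, IGFBP7 and PCOLCE. Each of this pair was thus among the 3 nearest genes of the other (0.58). For IGF2, after INS-IGF2, they were COL18A1 and MGP, and for IGFBP3 they were COL1A1, SLC47A1 and PDGFD.

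The other members had neighbours of another kind. For IGFBP5 they were PTTG1IP, TRAFD1 and KLF6 (from 0.21), for IGFBP6 PLAC9, NUDT14 and ESAM (from 0.26) and for IGFBP4 ENG, TAPBPL and NR1H3 (from 0.36). For IGF1 they were AGMAT, PIGW and PHF14 (from 0.19). ENG and ESAM are known as endothelial genes.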

How the data were processed

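RNA from 3 adjacent SVZa fragments of each monkey was made into TruSeq libraries without strand information. The authors called bases with CASAVA (1.8.2), used FastQC (0.10.0) for quality, TopHat2 (2.0.8) to align to the Macaca mulatta genome and bedtools (2.16.2) to count. The deposited values are raw counts for 29686 human RefSeq transcripts mapped to that genome, with no normalization. Genomic coordinates, transcript lengths and sequences were not used here.

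The transcript with the highest mean CPM was kept per symbol, and the 3 libraries of a monkey were summed. Sums were tested with edgeR (4.0.16, R 4.3.3; filterByExpr, TMM, robust quasi-likelihood, pair as a block) and p-values adjusted by Benjamini-Hochberg over all genes. Fragments and the interaction were tested on the 18 libraries with the monkey as a block. The biological coefficient of variation was 0.212. DESeq2 (1.42.0), limma (3.58.1), other scalings and filters, and fits leaving out monkeys, fragments or libraries were alternatives. Exclusion of single libraries was chosen after seeing the data. The edgeR fits of ischemia against sham and of the fragments were tested on simulated data with planted differences. The interaction fit was run on simulated data without a planted interaction, so its ability to find one was not tested. The simulated counts held no pair or monkey effect, unlike these data.

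The pairs come from the study's numbering of monkeys. Partners deviated together from their group means, with correlations across 17522 genes of 0.87, 0.77 and 0.65, against -0.79 to 0.62 for other combinations. The first pair differed from the other 4 monkeys in both groups, which by itself raises its value and lowers those of its other combinations. MK507 had 0.77 with MK501 and 0.47 with MK508, but MK506 had 0.65 with MK508 and 0.62 with MK501. The check thus decides little for MK506, and directions by pair rest on the study's numbering. No 2 fragments of a monkey had counts that agreed within sampling noise. All members were named. Of the other lists, genes at an unadjusted p under 0.05 and the 4 highest in mean CPM were named, and the 3 genes nearest to each member. Some genes that this rule would name are not reported here. The members and lists were chosen with earlier results of these data known.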

Additional observations from a re-analysis of the deposited data

Results flagged for a closer look

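In 9 libraries per group, a value was picked out when its gap to the nearest other library, as a share of the range, exceeded Dixon's 95% critical value. For independent values with a normal distribution, chance does this in about 1 of 20 groups. The fragments of a monkey are not independent, and the CPM values were not put on a log scale. The rate at which chance picks out such libraries is therefore not known. Among the sham libraries it was A2 of MK501 in every case, with 708 CPM of IGF2 (next 44.0), 449 CPM of IGFBP2 (next 46.0), 103 CPM of IGFBP3 (next 9.51), 100.1 CPM of IGFBP4 (next 23.6), 102 CPM of IGFBP6 (next 53.4) and 4014 CPM of IGFBP7 (next 421). Among the ischemic libraries it was A1 of MK503, with 27.5 CPM of IGFBP3 (next 3.70).

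In IGFBP3 and IGFBP4 the pairs moved one way in one fragment and the opposite way in another. For IGFBP3 all 3 pairs were higher after ischemia in A3 (median log2 difference 0.63) and lower in A2 (-1.28). For IGFBP4 all 3 were higher in A3 (0.16) and lower in A2 (-0.39). The interaction fit over all 3 fragments gave edgeR adjusted p = 0.623 and adjusted p = 0.691 for these genes, and the contrast of A2 with A3 alone was not tested.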

How the results depend on the processing

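The number of genes called between ischemia and sham, 0 with edgeR on monkey sums, was 1087 with DESeq2, 892 when the libraries were taken as 9 against 9, 1223 with limma and the monkey as a random block, 1 without the A2 fragments and 282 without the A3 fragments. It was 0 to 15 when 1 monkey was left out. The members at an unadjusted p under 0.05, 5 in all, were 3 with limma, without the A1 fragments, and without A2 of MK501 and A1 of MK504, and 3 to 5 when 1 monkey was left out. They were 6 without the 3 POLE2-rich libraries, where IGF2 and IGFBP2 were gained and IGFBP4 was lost. That fit kept only the TTR-rich A1 library of sham MK504. The share of all genes past the unadjusted threshold was worked out for the main fit only. The member counts of the other fits can therefore not be set against such a share. IGFBP5 and IGFBP6 passed an adjusted p of 0.05 with DESeq2, limma and 9 against 9, IGF1 with the latter pair, and IGFBP6 without the A3 fragments (0.0348). The 9 against 9 fit treats fragments of a monkey as independent. For the fragments, DESeq2 called 182 of the 17323 genes given to it, 1 of them a member, where edgeR called 0.

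Without the block for the pairs, 0 genes were called and 3 members had an unadjusted p under 0.05 (IGFBP2, IGFBP5 and IGFBP7). IGF1 and IGFBP6 then had log2 differences of -0.44 and -1.01 that missed it, and IGF2R turned to -0.038.

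IGF2R, near 0 throughout, turned to -0.048 without the A2 fragments and to -0.017 without the A3 fragments, and was -0.056 to 0.17 with 1 monkey left out. IGFBP3 turned to 0.48 without the A2 fragments, to 0.19 without A2 of MK501 and to 0.54 without that library and A1 of MK504, and was -2.17 to 0.32 with 1 monkey left out. IGFBP4 turned to 0.055 without the A2 fragments and to 0.077 without A2 of MK501 and A1 of MK503. The other 7 members kept their direction in all 20 settings. These settings are not all separate checks. With the pair as a block, leaving out 1 monkey leaves its partner without a comparison. The fits without either monkey of a pair were thus nearly alike, as in IGFBP2 with -3.27 without MK506 and -3.27 without MK508. Counting error adds to the spread where counts are low, as in IGFBP2 and IGFBP3, with as few as 12 counts in a library.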
